A study of Mus musculus with 6 samples.

Results

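The suppressors of cytokine signalling (SOCS) form a family of 8 genes, Socs1 to Socs7 and Cish, and their transcripts were followed in mouse bone marrow monocytes with and without IFN-beta. The members were the genes whose symbol is given for a non-control probe of the arrays, which selected 8 of 37325 gene names and 17 of 56605 probes. The cells came from C57BL/6J mice aged 6-8 weeks and had been purified as monocytes on magnetic columns. The 3 IFN-beta samples were cultured with 100 U of this type I interferon beside M-CSF, and the 3 control samples with M-CSF alone, all for 60 h. M-CSF, the macrophage growth factor, was given at 20 ng/mL. RNA of each sample was labelled with Cy3 and hybridised to 1 Agilent array. The labels give no number of mice, no pooling and no separate cultures, so p-values measure only the spread between these samples, which may be technical, and the number of arrays limits their precision.

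SOCS proteins close a feedback loop. Cytokine receptors activate Janus kinases (JAKs), which phosphorylate the transcription factors called STATs, and STATs switch on SOCS genes among others. Each SOCS protein carries an SH2 domain, which binds phosphorylated tyrosines on receptors or kinases, and a SOCS box, which recruits elongins B and C and cullin 5 into a ubiquitin ligase. Socs1 and Socs3 also carry a short kinase inhibitory region that blocks JAK activity. Socs1 is known for restraining interferon receptors in macrophages, Socs3 for restraining receptors that use gp130, and Cish and Socs2 for restraining receptors that act through STAT5. Socs4 and Socs5 are known mainly for acting on the EGF receptor, and Socs6 and Socs7 for acting on KIT or insulin receptor signalling.

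Short motifs of STAT dimers and of interferon response were searched for around transcription starts. The sequences of Socs1, Cish and Socs3, the windows read here that held a match, are shown. Socs3 did not pass the threshold given below, and Socs4, which did, held no match. Windows of 250 bases, 230 before the transcription start and 20 from it on, were read from RefSeq promoter sequences (build GRCm38.p6) for 4 of the 8 members, namely Socs1, Cish, Socs3 and Socs4. Capitals mark matches, on either strand, to the STAT dimer motif TTCNNNGAA (GAS, with 3 free bases) or to an interferon-stimulated response element (ISRE-like: TTTC, then 2 free bases, then TTTC again). The Socs1 window lies at chr16:10785517-10785766 on the minus strand, the Cish window at chr9:107296429-107296678 on the plus strand and the Socs3 window at chr11:117969347-117969596 on the minus strand. Each is written 5′ to 3′ along its gene.
Socs1: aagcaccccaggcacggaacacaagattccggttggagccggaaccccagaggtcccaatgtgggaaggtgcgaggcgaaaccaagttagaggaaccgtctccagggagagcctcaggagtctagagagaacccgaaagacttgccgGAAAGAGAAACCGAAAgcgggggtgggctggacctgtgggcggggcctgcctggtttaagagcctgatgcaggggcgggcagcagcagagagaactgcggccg
Cish: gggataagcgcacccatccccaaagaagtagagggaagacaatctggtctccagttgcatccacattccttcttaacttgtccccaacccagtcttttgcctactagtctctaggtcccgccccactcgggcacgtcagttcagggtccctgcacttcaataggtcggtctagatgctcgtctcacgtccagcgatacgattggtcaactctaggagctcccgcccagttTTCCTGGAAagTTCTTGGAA
Socs3: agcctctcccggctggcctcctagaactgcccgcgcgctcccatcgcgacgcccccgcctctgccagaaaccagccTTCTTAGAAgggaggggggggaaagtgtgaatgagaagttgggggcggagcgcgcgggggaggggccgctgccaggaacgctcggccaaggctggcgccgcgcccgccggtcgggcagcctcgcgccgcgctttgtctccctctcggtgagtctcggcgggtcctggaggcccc
Socs1 held 2 ISRE-like matches that overlap each other, with their first bases at -83 and -77 from the start, and no GAS match. Cish held 2 GAS matches, TTCCTGGAA with its first base at 1 and TTCTTGGAA at 12. Socs3 held 1 GAS match, TTCTTAGAA, at -154, and the Socs4 window (chr14:47276690-47276939, plus strand) held neither motif. Over 32851 such windows of 27025 genes, 6.96% held a GAS match and 2.91% an ISRE-like match, and 0.329% and 0.174% held 2 or more of them. These matches are letters in a window, and binding was not measured.

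Signals were log2-transformed and set against the 75th percentile of each array, so 0 stands for the signal at that percentile. That percentile was 244, 236 and 242 on the IFN-beta arrays, against 549, 528 and 305 on the controls. All 13 monocyte and macrophage markers measured, among them Csf1r and Cd68, lay above background on every array. Controls 1 and 2 lay closer to each other than any other pair of arrays (robust SD of 0.11 over 17522 genes), and control 3 stood 0.332 and 0.351 from them. They also differed in cell markers. Of 17 fibroblast and smooth muscle markers, 10 lay above background on each IFN-beta array, against 16, 17 and 8 on controls 1, 2 and 3. The summed signal of that list, before scaling, was 6690, 12700 and 3780 on the IFN-beta arrays, against 444000, 485000 and 9980 on controls 1, 2 and 3, while Col3a1 and Lum were not above background on the IFN-beta arrays or control 3. The summed erythroid marker signal was 2030, 2330 and 1910 on the IFN-beta arrays, against 75700, 67700 and 1560 on controls 1, 2 and 3. Each member is therefore given against all 3 controls, against controls 1 and 2, and against control 3 alone. In these bulk samples fewer cells of a type and less RNA per cell cannot be told apart.

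With IFN-beta, 3 of the 8 members rose (Socs1, Cish and Socs4), none fell past the threshold, and 5 did not pass it (limma, adjusted p under 0.05 over 19501 genes tested). Among all genes tested 19.8% passed, 11.8% in the higher direction and 8.03% in the lower. At an unadjusted p under 0.05, 5 members passed, against 36.3% of all genes. The IFN-beta and control arrays did not overlap for 5 members, against 40.2% of all genes tested. Against control 3 alone 3 members passed (9.53% of all genes), and against controls 1 and 2 5 members passed (48.1% of all genes), and 2 members, Socs1 and Cish, passed in both. In every comparison with control 3 alone the spread came only from the IFN-beta arrays and limma's pooling over genes, so the standard errors and p-values hold no spread between controls and assume that the lone array varies like the others. Socs2, the third member called there, had a log2 fold change of -0.37 against controls 1 and 2.

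**Figure D1:**
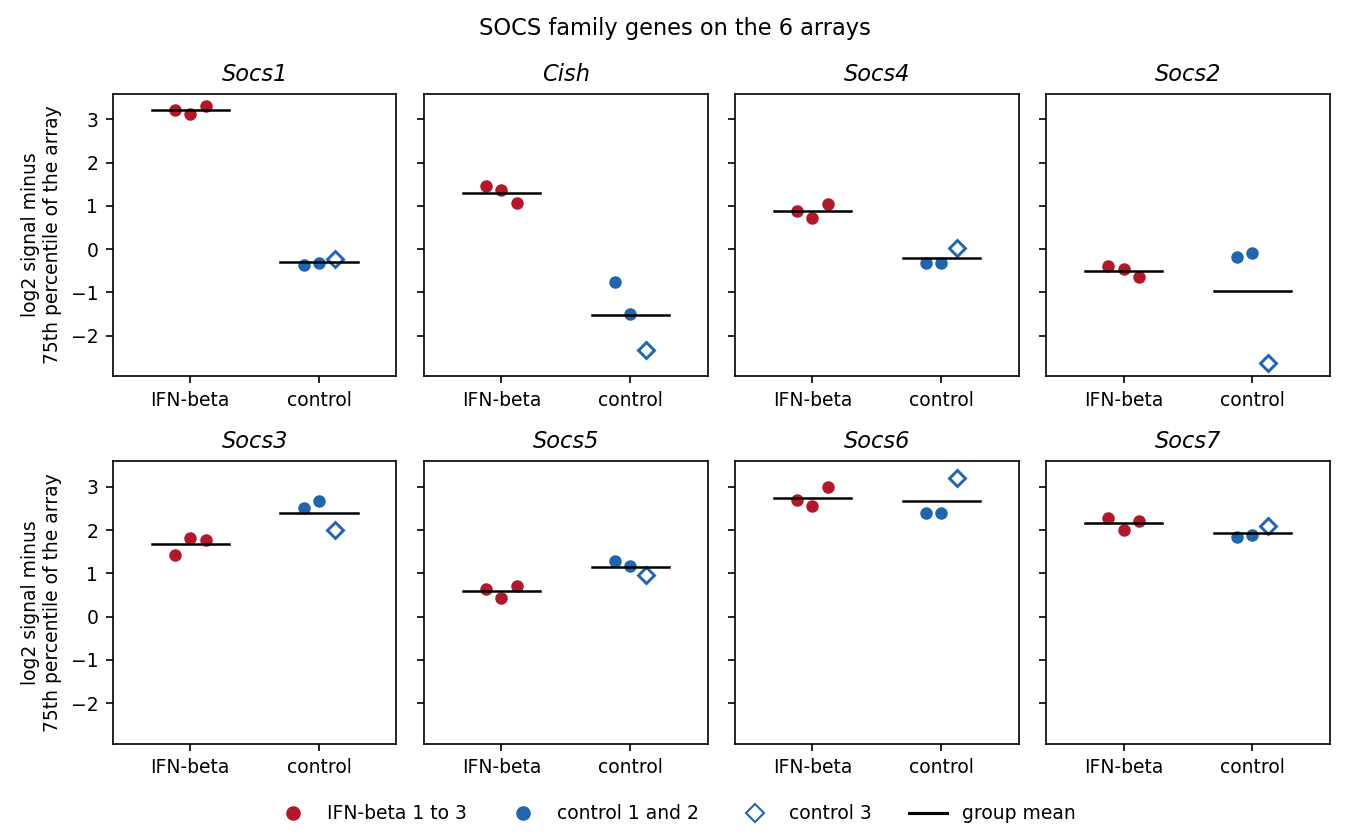
Level of each SOCS gene (log2 signal minus the 75th percentile of the array) on the 6 arrays, IFN-beta at left and control at right, with 1 point per array and a line at the group mean; control 3 is the open diamond. Socs1 lay between 3.12 and 3.30 on the IFN-beta arrays, against -0.36 to -0.23 on the controls, while Socs2 was split among the controls themselves.

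Socs1 rose 11.5-fold. Its probe A_51_P279606 (mm9 chr16:10783951-10784010, minus strand) was at 3.21, 3.12 and 3.30 on the IFN-beta arrays, against -0.36, -0.33 and -0.23 on the controls. The groups lay far apart, and neither spread by more than 0.18. The means were 3.21 ± 0.09 with IFN-beta and -0.31 ± 0.07 in control (SD, n = 3 each), and the log2 fold change was 3.52 ± 0.15 (SE, limma, adjusted p = 2.58e-05). Socs1 ranked 18th of 19501 genes by p-value and 89th by the size of its increase. The increase was 10.9-fold against control 3 alone (adjusted p = 0.000942) and 11.8-fold against controls 1 and 2 (adjusted p = 1.99e-05).

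Cish rose 7.09-fold, and its controls spread widely. Probe A_51_P470715 (mm9 chr9:107204196-107204255, plus strand) was at 1.45, 1.37 and 1.07 on the IFN-beta arrays, against -0.76, -1.50 and -2.33 on controls 1, 2 and 3. The groups did not overlap, with means of 1.30 ± 0.20 with IFN-beta and -1.53 ± 0.79 in control (SD, n = 3 each). The log2 fold change was 2.83 ± 0.37 (SE, limma, adjusted p = 0.00215). Controls 1 and 2 differed by 0.74 for Cish, a gap that 1.18% of all genes reached (median gap 0.08). The fold was 12.4 against control 3 alone (adjusted p = 0.00121) and 5.37 against controls 1 and 2 (adjusted p = 0.000937). On slide 1, which held the 3 controls and IFN-beta 1 as the lone treated array, the log2 fold change of 2.98 had an adjusted p of 0.0972, with the spread taken from the controls.
Most markers of basophils, mast cells and eosinophils were also higher with IFN-beta. Their summed signal, not scaled by the array's percentile, over 12 genes, all above background on every array, was 24600, 25300 and 17700 on the IFN-beta arrays, against 5790, 5240 and 5090 on the controls. Mcpt8, a basophil protease, was at 5.15, 5.16 and 4.84 on the IFN-beta arrays, against 1.15, 1.09 and 1.93 on the controls. Prg2 of the same list overlapped, at 1.28, 1.62 and 1.23 on the IFN-beta arrays, against 1.21, 1.05 and 1.8 on the controls. The median scaled level of 16 neutrophil markers was higher too, at 5.69, 5.72 and 5.38 on the IFN-beta arrays, against 3.69, 3.62 and 4.31 on the controls. Their summed signal before scaling overlapped, at 314000, 303000 and 255000 on the IFN-beta arrays, against 347000, 321000 and 250000 on the controls. Among these markers, the scaled levels of Mmp8, Retnlg and Csf3r also overlapped between the groups. Mpo, the granule enzyme myeloperoxidase, was at 6.52, 6.59 and 5.98 on the IFN-beta arrays, against 3.33, 3.29 and 4.06 on the controls. The part of such cells in the values of the members that rose was not tested.

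Socs4 rose 2.14-fold by its brightest probe, A_55_P1973886 (mm9 chr14:47911161-47911220, plus strand). The levels were 0.88, 0.73 and 1.05 on the IFN-beta arrays, against -0.32, -0.33 and 0.02 on the controls, and the groups did not overlap. The means were 0.89 ± 0.16 with IFN-beta and -0.21 ± 0.20 in control (SD, n = 3 each), and the log2 fold change was 1.10 ± 0.18 (SE, limma, adjusted p = 0.00583). Against control 3 alone the increase was 1.83-fold and missed the threshold (adjusted p = 0.0668). Before scaling, the signals overlapped, at 450, 393 and 500 on the IFN-beta arrays, against 439, 420 and 309 on the controls. Scaled on the spike-in probes in place of the percentile, the log2 fold change was 0.74 (adjusted p = 0.0663). With slide as a block it was 1.09 and missed the threshold.

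The 3 Socs4 probes did not move alike. The probe 928 bases upstream, A_51_P165424, was at -0.29, -0.17 and 0.08 on the IFN-beta arrays, against -1.32, -1.29 and -0.56 on the controls. It was also higher with IFN-beta (log2 fold change 0.93 ± 0.24, adjusted p = 0.0323 over 29795 probes, of which 21.5% passed), but against control 3 alone it was 0.43 (adjusted p = 0.329). The probe 4059 bases downstream, A_51_P471513, which the files list under a different transcript identifier, was at -0.59, -0.52 and -0.52 on the IFN-beta arrays, against -0.43, -0.47 and 0.10 on the controls. It lay lower on every IFN-beta array than on any control, and it did not pass (log2 fold change -0.27 ± 0.20, adjusted p = 0.347). Within each array the log2 difference between the brightest and the downstream probe was 1.47, 1.25 and 1.57 on the IFN-beta arrays, against 0.11, 0.14 and -0.08 on the controls. It was 1.37 ± 0.14 larger with IFN-beta (SE, limma, adjusted p = 0.0069 over 10294 probe pairs, of which 10.9% passed). It was 1.51 against control 3 alone (adjusted p = 0.134), and with the mean of the probes in place of the brightest the Socs4 change was 0.59 (adjusted p = 0.0736).

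**Figure D2:**
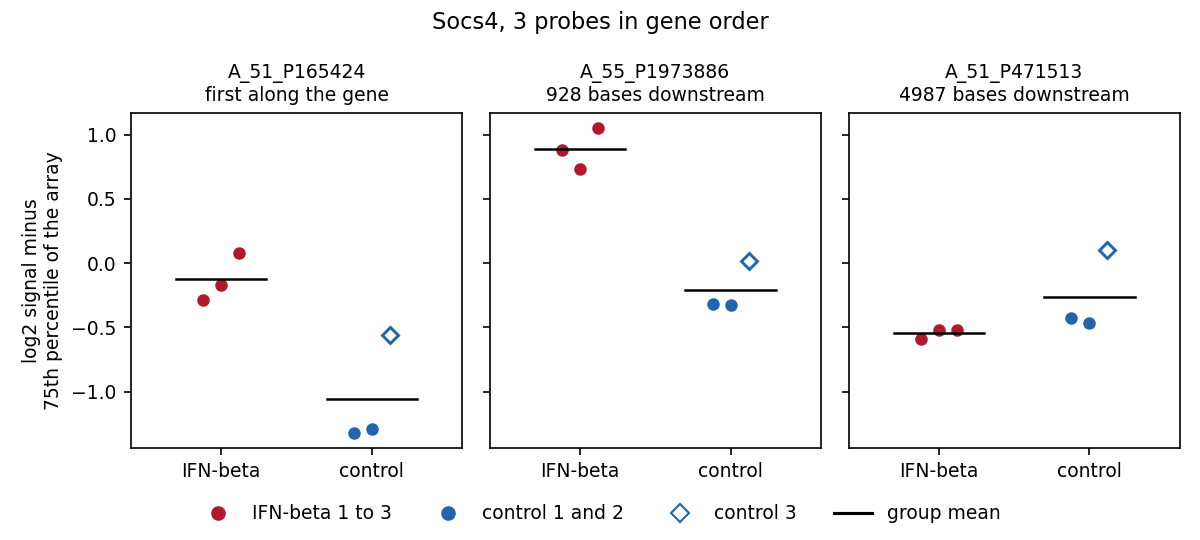
Level of the 3 Socs4 probes (log2 signal minus the 75th percentile of the array), ordered along the gene, IFN-beta at left and control at right in each panel, with 1 point per array and a line at the group mean. The first and second probes, 928 bases apart, lay higher on every IFN-beta array than on any control, and the third lay lower.

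Socs2 differed among the controls more than between the groups. Probe A_51_P107362 (mm9 chr10:94875066-94875125, minus strand) was at -0.39, -0.46 and -0.64 on the IFN-beta arrays, against -0.19, -0.08 and -2.64 on controls 1, 2 and 3. The IFN-beta arrays fell between control 3 and the other controls. With all controls the log2 fold change was 0.47 ± 0.63 (SE, limma, adjusted p = 0.624). Against control 3 alone it was 2.14 ± 0.21, a 4.41-fold increase (adjusted p = 0.00376, with no spread between controls in it), and against controls 1 and 2 it was -0.37 ± 0.13 (adjusted p = 0.058). Control 3 lay 2.51 below the mean of controls 1 and 2, a gap that 2.25% of all genes reached.
A second Socs2 probe, A_55_P1992838, was at -1.36, -1.29 and -1.58 on the IFN-beta arrays, against -1.41, -1.37 and -3.69 on the controls, again with control 3 alone apart. The other 2 Socs2 probes, 24319 and 27061 bases away, were well above background on controls 1 and 2 only and were not tested. Most fibroblast and smooth muscle markers of the list given above were high on the same pair of controls and low on control 3. Acta2 was an exception, at 5.62, 5.77 and 4.95 on controls 1, 2 and 3, and Fap was not above background on control 1. The part of such cells in the Socs2 values was not tested.

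**Figure D3:**
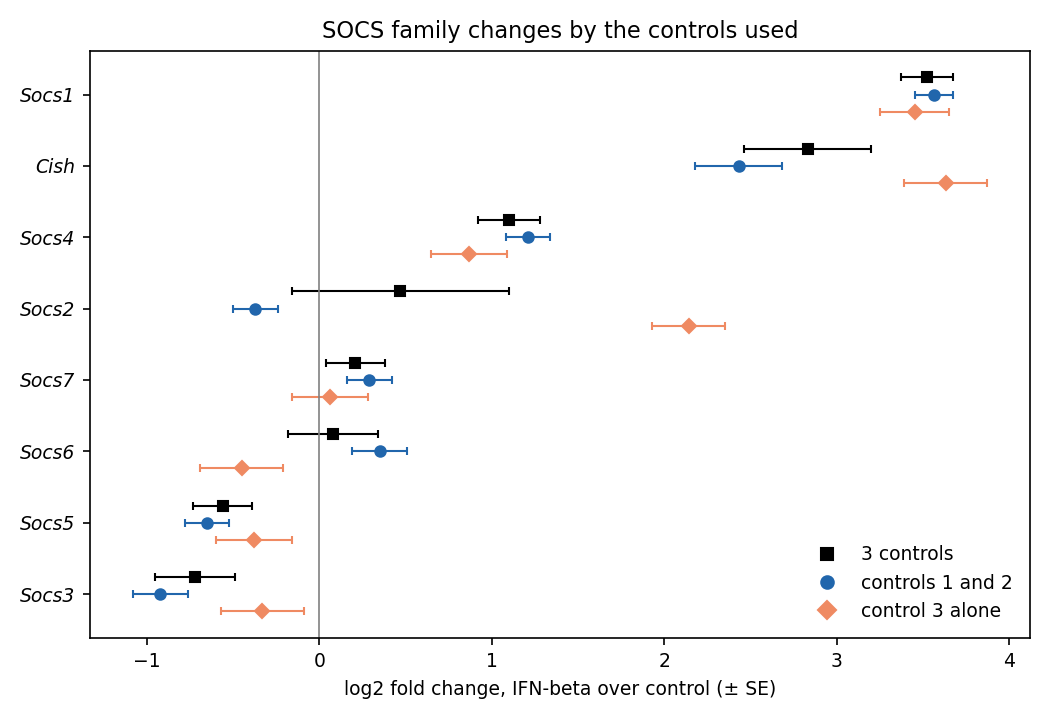
Log2 fold change of each SOCS gene, IFN-beta over control, with its standard error, against all 3 controls (squares), controls 1 and 2 (circles) and control 3 alone (diamonds). Socs1 was 3.52, 3.56 and 3.45 in these comparisons, whereas Socs2 was 0.47, -0.37 and 2.14.

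Socs3 and Socs5 lay lower on every IFN-beta array than on any control, and neither passed the threshold. Socs3 (probe A_51_P474459, mm9 chr11:117827480-117827539, minus strand) was at 1.43, 1.82 and 1.78 on the IFN-beta arrays, against 2.51, 2.68 and 2.01 on the controls. Its log2 fold change was -0.72 ± 0.23 (SE, limma, adjusted p = 0.0603), with means of 1.68 ± 0.22 with IFN-beta and 2.40 ± 0.35 in control (SD, n = 3 each). Control 3 was the closest control to the IFN-beta arrays. Against controls 1 and 2 the log2 fold change was -0.92 (adjusted p = 0.00627), and against control 3 alone it was -0.33 (adjusted p = 0.454). With spike-in scaling it was -1.09 (adjusted p = 0.0109).

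Socs5 (probe A_55_P2734257, mm9 chr17:87533521-87533580, plus strand) was at 0.64, 0.42 and 0.70 on the IFN-beta arrays, against 1.29, 1.18 and 0.97 on the controls. The means were 0.59 ± 0.15 with IFN-beta and 1.15 ± 0.17 in control (SD, n = 3 each), and the log2 fold change was -0.56 ± 0.17 (SE, limma, adjusted p = 0.0592). Against controls 1 and 2 the log2 fold change was -0.65 (adjusted p = 0.0111), and against control 3 alone it was -0.38 (adjusted p = 0.347). As for Socs3, control 3 was the control nearest to the IFN-beta arrays.

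Socs6 and Socs7 overlapped between the groups. Socs6 (probe A_55_P2799500) was at 2.69, 2.56 and 2.99 on the IFN-beta arrays, against 2.40, 2.40 and 3.20 on the controls, with control 3 the highest array of all. Its log2 fold change was 0.08 ± 0.26 (SE, limma, adjusted p = 0.853), and it was -0.45 against control 3 alone and 0.35 against controls 1 and 2. The sign therefore depended on the control. The other 2 Socs6 probes tested gave -0.16 and -0.36 (adjusted p = 0.658 and 0.27), and 2 further probes were not above background on any array.

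Socs7 (probe A_55_P2034893, mm9 chr11:97259763-97259822, plus strand) was at 2.27, 2.0 and 2.20 on the IFN-beta arrays, against 1.85, 1.89 and 2.09 on the controls. IFN-beta 2 lay below control 3, and the log2 fold change was 0.21 ± 0.17 (SE, limma, adjusted p = 0.392). Against controls 1 and 2 the log2 fold change was 0.29 (limma, adjusted p = 0.113), and against control 3 alone it was 0.06. With spike-in scaling and all 3 controls the sign turned, to -0.15.

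Setting Socs1 against another member on the same array removes the scaling of the array. The log2 ratio of Socs1 to Socs3 was 1.79, 1.30 and 1.53 on the IFN-beta arrays, against -2.87, -3.02 and -2.24 on the controls, a 19-fold change in the ratio. Since these are different probes, the ratio is read only as a change between groups. The change was 16.9-fold against Socs5, 10.9-fold against Socs6, 9.90-fold against Socs7, 8.29-fold against Socs2 and 5.35-fold against Socs4. The ratio to Socs2 was 3.6, 3.58 and 3.95 on the IFN-beta arrays, against -0.17, -0.26 and 2.40 on the controls. Its change was 15.2-fold without control 3 and 2.47-fold against control 3 alone. In each of these 6 ratios the groups did not overlap, and the exact 2-sided permutation test gave p = 0.1, the smallest that 3 against 3 arrays allow (adjusted p = 0.117 over 7 comparisons). All 6 hold the same Socs1 values, so they are not independent of each other. The share of all genes whose ratio to Socs1 did not overlap was not computed.
Against Cish the groups overlapped. The ratio of Socs1 to Cish was 1.76, 1.75 and 2.24 on the IFN-beta arrays, against 0.40, 1.16 and 2.10 on the controls. The change was 0.69 on the log2 scale, or 1.62-fold (exact 2-sided permutation test, p = 0.3, adjusted p = 0.3). Without control 3 it was 1.13, and against control 3 alone -0.18. With normexp background correction it was 0.87 and the groups no longer overlapped (exact permutation p = 0.1, the smallest possible).

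**Figure D4:**
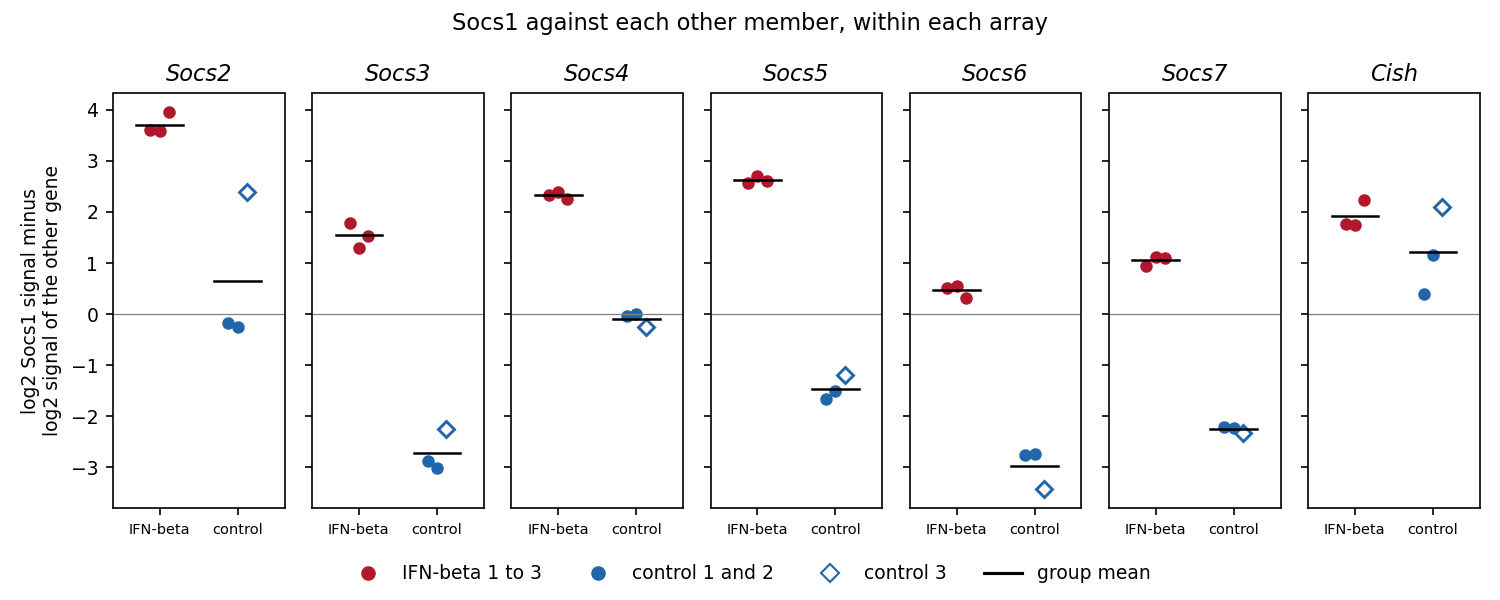
Log2 signal of Socs1 minus that of each other SOCS gene within each array, IFN-beta at left and control at right, with 1 point per array and a line at the group mean. The ratio to Socs7 was 0.94 to 1.12 on the IFN-beta arrays, against -2.33 to -2.21 on the controls, and the ratio to Cish overlapped between the groups.

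The genes whose values over the 6 arrays lay nearest to those of a changed member were listed by Euclidean distance between values centred on their mean, among 14475 genes with a current symbol. Nearest to Socs1 were Ddit3, Nrg4, Phf11c, Il12rb1 and Phf11a, at distances of 0.29 to 0.40, against a median of 4.21 over all candidates. Ddit3, a stress transcription factor, was at 3.80, 3.92 and 4.20 on the IFN-beta arrays, against 0.51, 0.59 and 0.71 on the controls. Il12rb1, a subunit of the receptors for interleukins 12 and 23, was at 1.41, 1.38 and 1.31 on the IFN-beta arrays, against -2.09, -2.37 and -1.82 on the controls. Both were picked for their closeness to Socs1, so their likeness to it is no result of its own.

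Nearest to Cish were Bnip5, Pla2g5, Serpina3g, Pglyrp2 and Gzmb, at 0.43 to 0.77 (median 3.64). Of these, Bnip5 lay within background on all 3 controls, and Pglyrp2 and Gzmb lay above it on control 1 alone, so their order among controls is not measured. Serpina3g, a serine protease inhibitor, was above background on all arrays, at 2.84, 2.78 and 2.63 on the IFN-beta arrays, against 0.21, 0.03 and -1.28 on the controls. Nearest to Socs4 were Idnk, Riox2, Gm6377, Ms4a7 and Utp4, at 0.11 to 0.12 (median 1.33). Ms4a7, a membrane protein of macrophages, was at 6.88, 6.80 and 7.06 on the IFN-beta arrays, against 5.81, 5.71 and 6.13 on the controls.

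Around the family, 31 of 123 other pathway genes tested in 9 lists changed, beside the 19.8% of all genes given above. The median log2 fold change was 0.34 over the 8 SOCS genes and 0.10 over all genes, and against control 3 alone 0.47 and -0.10. Of 19 listed ligands that signal through JAK-STAT, 10 were tested, the others not lying above background on every array of either group. Of the 10 tested, 6 rose and none fell (median 1.48, and 1.42 against control 3 alone). They included Il4 (3.44 ± 0.20, adjusted p = 8.56e-05), which is also a basophil marker here, Osm (2.20 ± 0.20, adjusted p = 0.000497) and Csf1 (2.33 ± 0.40, adjusted p = 0.00718), the gene of M-CSF itself. Il12b, a subunit of interleukin 12, was 1.56 ± 0.20 higher (adjusted p = 0.00192). Il12a, which also rose, lay above background on 3 IFN-beta arrays and 2 controls, so only the IFN-beta group brought it into the test.

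Of 8 interferon receptor and JAK genes 1 rose, Jak2, a kinase that Socs1 and Socs3 proteins inhibit (1.83 ± 0.21, adjusted p = 0.00128), and the list median was 0.33, turning to -0.16 against control 3 alone. Of 27 other cytokine receptors listed 24 were tested, and of these 5 rose and 2 fell (median 0.06, and -0.12 against control 3 alone). Il21r (2.14 ± 0.20, adjusted p = 0.000548), Il2rg, the shared gamma chain (1.67 ± 0.23, adjusted p = 0.00297), and Igf1r (0.82 ± 0.17, adjusted p = 0.0138) were among those that rose, though Igf1r missed the threshold against control 3 alone (0.68, adjusted p = 0.118). Il13ra1, a chain of the receptor for interleukins 4 and 13, fell by 1.58 on the log2 scale (SE 0.17, adjusted p = 0.000864).

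Of 6 STAT genes given here 2 rose and none fell (median 0.37, and 0.10 against control 3 alone). Stat2, which acts downstream of type I interferon receptors, was 2.77 ± 0.23 higher (adjusted p = 0.000327), and Stat4, which interleukin 12 activates in T cells, was 1.62 ± 0.29 higher (adjusted p = 0.00804). Stat3 (0.44 ± 0.18, adjusted p = 0.113) did not pass, nor did Stat5a (-0.16 ± 0.22, adjusted p = 0.642), Stat5b or Stat6.

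Of 15 STAT3 targets 3 rose (median 0.39), namely Nfil3 (1.04 ± 0.22, adjusted p = 0.0161), Myc (0.97 ± 0.26, adjusted p = 0.0357) and Il1rn (0.85 ± 0.24, adjusted p = 0.0434). Against control 3 alone the median was 0.13, and neither Myc (0.41, adjusted p = 0.296) nor Il1rn (0.34, adjusted p = 0.356) passed. Of 14 STAT5 targets 5 rose (median 0.46), and against control 3 alone 3 did (median 0.17). Cst7, the protease inhibitor cystatin F, was 3.39 ± 0.21 higher (adjusted p = 9.02e-05), the cell cycle inhibitor Cdkn1a 0.99 ± 0.21 (adjusted p = 0.0165) and Ccnd1, cyclin D1, 1.12 ± 0.27 (adjusted p = 0.0269), and Osm, given above, is in this list too. Cdkn1a and Ccnd1 did not pass against control 3 alone (0.59 and 0.52, adjusted p = 0.147 and 0.226). With all 3 controls neither of these lists held a gene that fell past the threshold. Against controls 1 and 2, 6 STAT3 targets were higher and 2 lower in limma. The lower genes were Timp1 (-5.87, adjusted p = 1.15e-05) and Fos (-0.44, adjusted p = 0.0477). Timp1 was -4.08 ± 1.31 with all 3 controls (adjusted p = 0.0645) and -0.50 against control 3 alone.

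Of 19 other negative regulators of JAK-STAT signalling 4 rose and none fell (median 0.22, and -0.01 against control 3 alone, where 3 were higher). Usp18, which blocks the type I interferon receptor, rose by more than Socs1, at 4.33 ± 0.27 (adjusted p = 9.8e-05), and Isg15, which stabilises Usp18 protein in human cells, was 3.79 ± 0.25 higher (adjusted p = 0.000123). The ubiquitin ligase gene Cblb (1.49 ± 0.19, adjusted p = 0.00194) and the adaptor gene Sh2b2 (1.02 ± 0.25, adjusted p = 0.028) also rose, and Sh2b2 did not pass against control 3 alone (0.48, adjusted p = 0.229). Whether the increases of Usp18 and Socs1 differ was not tested.

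No gene passed in the list built around the ligase that SOCS boxes recruit, with all 3 controls. The list held 11 genes, which include Elob, Eloc, Cul5 and Rnf7, and also Cul2 and Rbx1. Of these 0 passed in limma and 0 had an unadjusted p under 0.05, and the list was not tested as a set. The median was 0.05 and the range from -0.26 to 0.35. Against controls 1 and 2 alone, Rbx1 (0.52, limma, adjusted p = 0.0285) and Ube2f (0.45, adjusted p = 0.0316) passed. Of 30 other genes whose proteins carry a SOCS box 20 were tested, and of these 1 rose and 3 fell (median -0.09). Asb4 fell by 1.74 (SE 0.23, adjusted p = 0.00206), Neurl2 fell by 1.14 (SE 0.19, adjusted p = 0.00658) and Spsb4 fell by 0.86 (SE 0.16, adjusted p = 0.01), and Asb13 was 0.73 ± 0.18 higher (adjusted p = 0.0295). Against control 3 alone the medians were -0.17 for the ligase genes and -0.27 for these others, beside -0.10 over all genes. Spsb4 and Asb13 did not pass there (adjusted p = 0.076 and 0.0547).

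**Figure D5:**
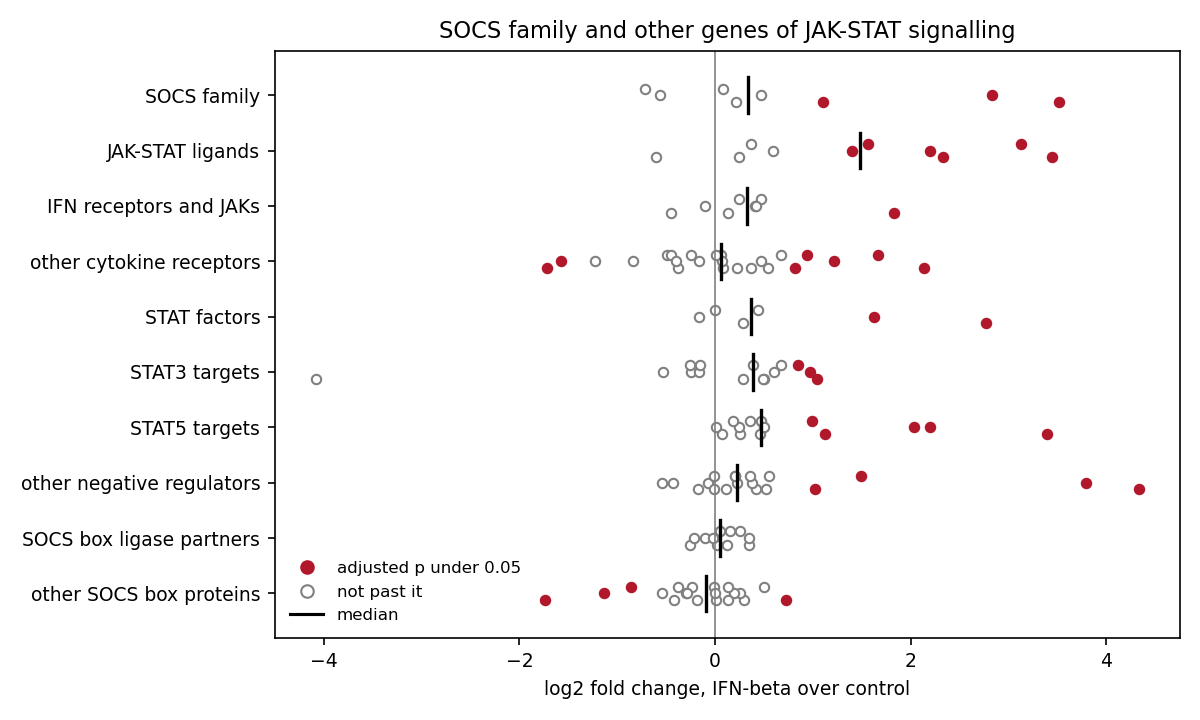
Log2 fold change of each tested gene, IFN-beta over control, in the SOCS family and the 9 lists, with 1 point per gene, filled where the adjusted p was under 0.05, and a bar at the list median. The SOCS family ran from -0.72 to 3.52 around a median of 0.34, and the ligase partners stayed between -0.26 and 0.35.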

How the data were processed

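Mouse monocyte RNA was measured on 6 1-colour Agilent arrays, 3 with IFN-beta and 3 control, grouped by the labels. The intensity analysed is the processed signal that Agilent Feature Extraction 12.0.3.1 gave for each spot, not normalized between arrays per the file headers. The authors also deposited log2 values for these arrays (r from 0.996 to 0.999 with the scanner values). The submitters' processing notes name limma and Agilent Feature Extraction, and the normalization, centring and scale of these log2 values are not given in the sources used here, so they served as an alternative.

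Outlier spots (135 to 174 per array) were left out, spots of a probe averaged, and the array's 75th percentile over probes subtracted from log2 signals, which also sets how a level compares between arrays. Probes well above background on every array of a group were tested (29795, including 13 of 17 SOCS probes). No probe was saturated. A gene was represented by its brightest tested probe, and levels are not compared between probes. Groups were compared with limma (3.58.1) in R (4.3.3), after reading the files through data.table (1.17.8), without covariates, adjusting by Benjamini-Hochberg over 19501 genes. Scripts were tested on simulated data. Symbols were updated through RefSeq accessions for 32994 of 56605 probes. Probe positions are those of the files (mm9), whose exon or UTR annotation was not used here.

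The text names all members, in each list up to 4 called genes of lowest p and the first in the lesser direction, and the 5 genes nearest to each called member. A few marker genes and Elob, Eloc, Cul5, Rnf7, Cul2, Rbx1 and Ube2f were named beyond that rule as examples. So were Il12a, Stat3, Stat5a, Stat5b, Stat6, Timp1 and Fos. A gene and a list that the rule names are not reported here. Members and lists were chosen with earlier results of these data known. Alternatives were quantile and spike-in scaling, normexp (offset 50), the deposited log2 values, other filters and probe rules, trend and robust variance, array weights, slide and replicate blocks, slide 1 alone, leaving out arrays, control 3 alone and, added after seeing the data, controls 1 and 2 as 1 sample, the fit of differences between probes, and the Socs1 ratios without or with only control 3.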

Additional observations from a re-analysis of the deposited data

How the results depend on the processing

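Socs1 rose under all 22 alternatives, by 3.16 to 3.57 on the log2 scale (adjusted p from 6.21e-08 to 0.0203), and Cish under all but slide 1 alone. Socs4 missed the threshold in 5: spike-in scaling (0.74), the mean of its probes (0.59), slide as a block (1.09), slide 1 alone (1.09) and control 3 alone (0.87). Socs3 passed, lower, in 6 and Socs5 in 7. Socs6 changed sign under quantile normalization (-0.02), spike-in scaling (-0.28), normexp (-0.08), normexp with quantile normalization (-0.07), the mean of its probes (-0.15), control 3 alone (-0.45), and without IFN-beta 3 (-0.04), control 1 or control 2 (both -0.05), as with controls 1 and 2 as 1 sample (-0.05). Socs7 changed sign under spike-in scaling (-0.15), and Socs2 with array weights (-0.31). Leaving out an array, Socs2 ranged from -0.37 (without control 3) to 0.92 and Socs6 from -0.05 to 0.35. The number of members that changed, 3, was 5 with normexp and with trend and robust variance, 7 with array weights, 1 on slide 1 alone, and 3 to 5 leaving out an array, where 5 was reached without control 3. The number of genes changed, 3866, was 1697 without a filter, 12735 with array weights (their estimation stopped before convergence), 1040 with slide as a block, 369 on slide 1 alone, 1858 against control 3 alone, 6399 over probes, 1992 with controls 1 and 2 as 1 sample, and 1828 to 9387 leaving out an array, the highest without control 3 and the lowest without control 1. The pathway genes changed, 31, were 17 without a filter, 91 with array weights, 13 with slide as a block, 5 on slide 1 alone, and 17 to 70 leaving out an array, the lowest without IFN-beta 2 and the highest without control 3. The causes were not tested beyond the fewer arrays that slide 1 and left-out arrays leave. Of called genes 59.5% were higher, against 22.9% with spike-in scaling (960 higher, 3226 lower) and 69.9% with normexp. The median of all genes was 0.10, and -0.26 with spike-in scaling. The change of Socs1 over Socs4, Socs5 and Socs7 was 2.22, 3.72 and 3.11 with normexp, and over Socs4 2.93 with the mean of probes. Against control 3 alone it was 1.31, 3.77, 2.57, 3.82 and 3.9 over Socs2 to Socs6 in turn, and over Cish -0.18. Over Cish it was 0.87 with normexp, where the groups did not overlap. Arrays with the same replicate number deviated together only weakly (r = 0.07, 0.02 and 0.07), so the numbers were not taken as pairs, and with a replicate block 3268 genes, 3 members and 28 pathway genes changed. Dim signals limit the Socs2 and Socs6 probes that were not tested.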
